A study of Mus musculus with 7 samples.

Results

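Around Alox15, the gene of arachidonate 15-lipoxygenase, mouse chromosome 11 is densely packed with genes of unrelated function. The 42 genes described here are neighbours of Alox15 that were listed by symbol. Every listed symbol matched 1 Ensembl gene in the deposited count table of 51789 genes, and all 42 lie on chromosome 11 in GENCODE M21 (GRCm38, the build also called mm10). They span 1.60 Mb, from position 69632990 to 71230733, with 16 genes at lower coordinates than Alox15 and 26 at higher ones. Alox15 itself is a protein-coding gene on the minus strand, from 70344152 to 70352031.

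A knockout allele is often made in stem cells of one mouse strain and then bred into another. Repeated breeding removes most of the donor strain's DNA, but a stretch around the knocked-out gene stays linked to it. Genes in that stretch can then differ between knockout and wild-type animals for reasons of strain and not of the deleted gene. The sources used here give neither the strain of the mice nor the way the Alox15 allele was made. A table of counts holds levels of transcripts and no sequence variants, so the question asked here is whether the neighbours' levels differed between genotypes.

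The libraries were made from untreated mouse cells labelled granulocytes, with 4 libraries wild type for Alox15 and 3 knockout. The method, QuantSeq, counts tags close to the polyA tail of each transcript. Total counts ran from 3228292 to 5657192 per library. The labels give no tissue of origin, sorting scheme, age or sex, nor the part of Alox15 that was removed, and they do not say whether replicates were separate animals. The p-values therefore reflect how much these libraries varied, and that variation may be technical.

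Alox15 does not check the genotype labels. Levels are given as CPM, the count over the library's scaled total. For Alox15 alone, counts were summed by genotype and set over the unscaled totals. Alox15 had 0 of 18152398 counts in wild type (exact 95% interval 0 to 0.203 CPM), where 3 counts would be 0.165 CPM. It had 1 of 13826608 in knockout (0.0723 CPM, exact 95% interval 0.00183 to 0.403). These intervals cover counting error only. The 7 neutrophil markers examined had counts in every library, but their sum ranged over 2390 to 24712 CPM among wild types against 1893 to 21447 CPM among knockouts, lowest in wild type 2 and knockout 3. In bulk libraries such as these, fewer cells of a type and less RNA per cell cannot be told apart. The 6 T cell markers together stood at 239 to 556 CPM among wild types and 300.2 to 834 CPM among knockouts. The 3 erythroid markers stood at 97.4 to 894 CPM and 246 to 1047 CPM in the same order. Stromal and endothelial markers, 4 in all, stood at 77.7 to 226 CPM and 138 to 203 CPM. Sparc and Pecam1 of this list were higher in every knockout than in every wild type, and Col1a1 and Col1a2 overlapped. None of these 4 was called. Of all 12506 tested genes, 3.13% had groups without overlap, 1.57% with knockout higher. Eosinophil and basophil or mast cell markers were low and mixed. Of the 4 eosinophil markers, Epx was at 0 in all libraries and Prg2 had 2 counts, while Siglecf reached 11.4 CPM and Ccr3 5.98 CPM, both in wild type 1. Of the 4 basophil and mast cell markers, Mcpt8, Fcer1a and Ms4a2 were at 0 in all libraries, and Cpa3 stood at 1.79 to 24.7 CPM. Knockouts 2 and 3 have sample descriptions that begin differently (e1.A) from those of the remaining 5 libraries (e1.Y), and Xist stood at 382 and 102 CPM in them against 0.896 to 6.11 CPM elsewhere. Ddx3y, on the Y chromosome, stood at 0.306 and 0.195 CPM in knockouts 2 and 3 against 19.3 to 119 CPM elsewhere. Eif2s3y and Kdm5d, also Y-linked, were at 0 in both and had counts in every other library. Uty was at 0 in both and also in wild type 4. By these transcripts knockouts 2 and 3 were female-type, and the 4 wild types and knockout 1 male-type. Every comparison of knockout with wild type carries this imbalance. What the prefix stands for was not given, and prefix, sex-linked transcripts and genotype cannot be told apart in knockouts 2 and 3.

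No neighbour of Alox15 passed the test between knockout and wild type. Of the 42 genes, 36 had enough counts to be tested with edgeR, and 0 were called at an adjusted p under 0.05, where 0 of all 12506 tested genes (0%) were called. The adjusted p was 0.99995 for each of the 36. Libraries of the same genotype varied much (edgeR's biological coefficient of variation was 0.563). With 4 wild types and 3 knockouts, a missing call does not show that levels were equal. At an unadjusted p under 0.05 there was 1 neighbour of 36 (2.78%), against 154 of 12506 genes (1.23%). For no neighbour did all 3 knockouts lie above, or all below, the 4 wild types, which happened for 3.13% of all tested genes, 1.57% with knockout higher and 1.57% with knockout lower. A count of 0 among 36 is near that background and is not a result about the neighbours. The log2 fold changes of knockout over wild type had a median of 0.055 with quartiles of -0.15 and 0.19. Over all tested genes the median was 0.012 and the quartiles -0.25 and 0.27. By sign alone, 21 neighbours were on the knockout side and 15 on the wild-type side, or 58.3% against 51.4% of all genes on the knockout side.

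Next, the neighbours were ordered by distance from Alox15. The 6 tested neighbours whose start lies within 200 kb of that of Alox15 had log2 fold changes from -0.44 to 0.61, and 0 of them reached an unadjusted p under 0.05. The 15 tested genes at lower coordinates had a median of 0.051 and a range of -0.36 to 0.69. The 21 at higher coordinates had a median of 0.098 and a range of -1.81 to 0.61. The lowest of these values belongs to Pfn1 and the highest to Senp3.

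**Figure D1:**
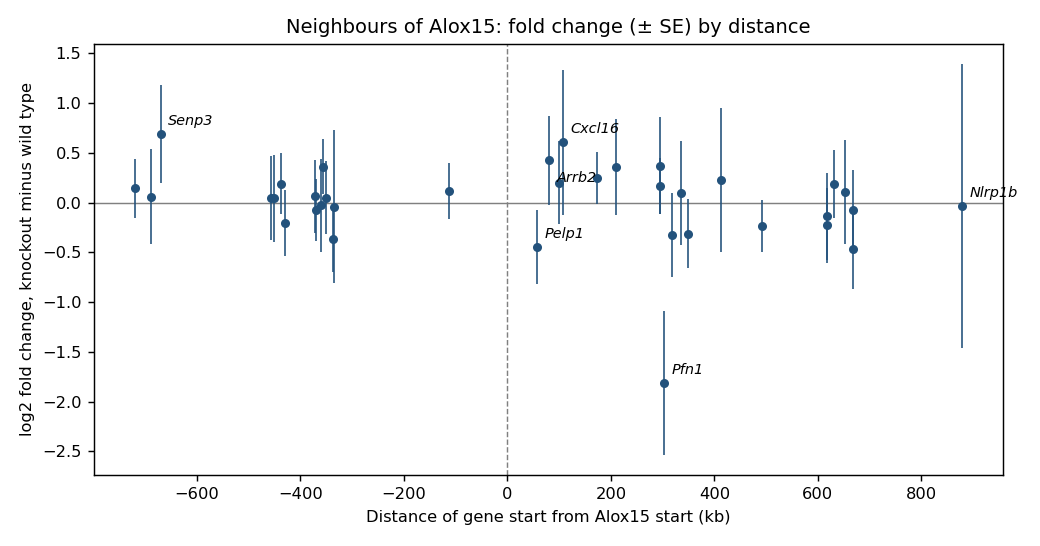
Log2 fold change of knockout over wild type for the 36 tested neighbours of Alox15 (points; bars are the standard error from edgeR) against the distance of each gene's start from the start of Alox15 in kb. All points but Pfn1, at -1.81, lie between -0.46 and 0.69.

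Within the 5 libraries whose descriptions begin with e1.Y, knockout 1 is the only knockout. It lay outside the range of the 4 wild types for 11 of 36 neighbours (30.6%), 6 higher and 5 lower, against 37.7% of all tested genes. The 6 genes where it was higher were Med11, Cxcl16, Rnf167, Slc25a11, Rpain and Phf23. The 5 where it was lower were Pelp1, Spag7, Rabep1, Acadvl and Elp5. The other prefix holds no wild type, so no comparison of genotypes can be made in it. Knockouts 2 and 3 lay together outside all 5 libraries of the first prefix for 2 of 36 neighbours, Senp3 (higher) and Rpain (lower), or 5.56% against 6.84% of all tested genes. Both shares were below those of all genes.

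Closest to Alox15 with measurable transcripts was Pelp1, whose start lies 58.0 kb away at higher coordinates (70392883 to 70410031, minus strand). PELP1 is a nuclear scaffold protein that works in ribosome assembly and as a coregulator of nuclear receptors. Pelp1 stood at 16.4, 26.3, 31.0 and 24.4 CPM in wild types 1 to 4 and 15.0, 15.3 and 23.8 CPM in knockouts 1 to 3. Knockouts 1 and 2 were below all wild types and knockout 3 was inside their range, so that the groups overlapped. Its log2 fold change was -0.44 ± 0.37 (SE, unadjusted p = 0.255), and -0.76 without knockout 3. Other subunits of the complex in which PELP1 acts in ribosome assembly, with genes elsewhere in the genome, had values of either sign: Tex10 0.18 ± 0.36, Wdr18 -0.40 ± 0.40, Las1l -0.16 ± 0.32 and Nol9 -0.03 ± 0.29. Senp3, which encodes the SUMO protease that joins this complex, is also a neighbour, 669.9 kb from Alox15 on the other side. Senp3 stood at 6.57, 6.42, 12.9 and 7.41 CPM in wild types 1 to 4 and 8.55, 19.0 and 13.0 CPM in knockouts 1 to 3. Knockouts 2 and 3 were above every wild type, knockout 3 only narrowly, and knockout 1 was not. The log2 fold change of Senp3 was 0.69 ± 0.49 (SE, unadjusted p = 0.189), and 0.036 ± 0.69 with the description prefix as a covariate, a fit in which knockout 1 is the only knockout set against wild types of its own prefix.

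The promoter window of Pelp1 is shown because it is the nearest one to Alox15 among transcribed neighbours (RefSeq, GRCm38.p6, chr11:70409982-70410281, minus strand). Capitals mark words that were searched on both strands. The GC box was searched as GGGCGG. The box known as CCAAT was searched by those letters, and the TATA box as TATAAA. A word bound by factors of the ETS family was searched as CCGGAAG. The last word, bound by the factor YY1, was AAGATGGCG.
Pelp1: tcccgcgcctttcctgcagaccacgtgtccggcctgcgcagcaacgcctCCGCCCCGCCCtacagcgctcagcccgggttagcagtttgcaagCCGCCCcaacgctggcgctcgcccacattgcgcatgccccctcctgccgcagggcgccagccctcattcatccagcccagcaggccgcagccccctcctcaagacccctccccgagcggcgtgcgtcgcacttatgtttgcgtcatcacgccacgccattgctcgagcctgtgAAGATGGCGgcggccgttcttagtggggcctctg
The window runs from 250 bases before the start of transcription to 50 after it and is 68.7% G or C. The word AAGATGGCG, near its end, stood in 4 of 35 neighbours with a RefSeq promoter window, which were Mpdu1, Pelp1, Psmb6 and Nup88. Counted by window, 8.0% of the 50 windows of neighbours held it, against 1.40% of the 32851 RefSeq mouse windows. GC boxes stood in 56.0% of the neighbours' windows against 35.7% of all, and TATAAA in 2.0% against 13.6%. Several windows of 1 gene overlap, and a matching word is a description and no evidence of binding.

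Arrb2 and Cxcl16, both close to Alox15, have known roles in leukocyte migration. Arrb2 encodes β-arrestin 2, which binds activated G protein-coupled receptors, chemokine receptors among them, and ends their signalling. Arrb2 stood at 181, 51.4, 109 and 82.3 CPM in wild types 1 to 4 and 179, 170.3 and 77.1 CPM in knockouts 1 to 3. Wild type 1 and knockouts 1 and 2 were high, wild type 2 and knockout 3 low, and the log2 fold change was 0.43 ± 0.45 (SE, unadjusted p = 0.366). It was 0.78 without wild type 1, 0.20 without wild type 2 and 0.77 in limma-voom. Its paralog Arrb1 stood at 62.0 ± 28.2 CPM (SD, n = 4) for the wild types against 58.8 ± 4.84 CPM (SD, n = 3) for the knockouts. The kinases that prepare receptors for arrestins, Grk2 and Grk6, had log2 fold changes of 0.08 ± 0.35 and 0.23 ± 0.26 (SE).

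Cxcl16 encodes a chemokine that is made as a transmembrane protein and shed by proteases such as ADAM10, and that attracts cells with the receptor CXCR6. Cxcl16 stood at 16.4, 4.54, 21.1 and 16.1 CPM in wild types 1 to 4 and 48.8, 10.4 and 6.82 CPM in knockouts 1 to 3. Knockout 1 stood above all other libraries, while knockouts 2 and 3 were below 3 of the 4 wild types. Its log2 fold change of 0.61 ± 0.73 (SE, unadjusted p = 0.427) turned to -0.76 without knockout 1. Summed macrophage markers were also highest in knockout 1, at 868 CPM against 474 and 150.3 CPM in knockouts 2 and 3 and 124 to 365 CPM in wild type. Csf1r of that list was highest in wild type 1, at 229 CPM against 180 CPM in knockout 1. Summed B cell markers were highest in knockout 1 too, at 63.4 CPM against 27.6 and 27.5 CPM in knockouts 2 and 3 and 2.39 to 52.4 CPM in wild type. The part of macrophage or B cell transcripts in the level of Cxcl16 was not tested. The receptor gene Cxcr6 stood at 5.82 to 12.3 CPM among wild types against 8.16 to 11.6 CPM among knockouts, and Adam10 at 57.4 to 94.4 CPM among wild types against 35.4 to 90.1 CPM among knockouts. Zmynd15, which starts inside Cxcl16 on the opposite strand, had 76 counts in all and was not tested. Zmynd15 stood at 0, 0, 1.99 and 1.59 CPM in wild types 1 to 4 and 10.5, 1.84 and 0 CPM in knockouts 1 to 3. Knockout 1, with 54 of the 76 counts, was also the library with the highest Cxcl16.

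Between Arrb2 and Cxcl16 lies Med11, a subunit of the head of Mediator, which links transcription factors to RNA polymerase II. Med11 stood at 22.4, 11.6, 19.7 and 14.3 CPM in wild types 1 to 4 and 27.8, 12.9 and 17.7 CPM in knockouts 1 to 3. The log2 fold change was 0.20 ± 0.41 (SE, unadjusted p = 0.637) and -0.15 without knockout 1, the library with the highest value. Among the other head subunits, Med17 stood at 9.56 to 20.2 CPM among wild types against 25.1 to 27.8 CPM among knockouts, without overlap (0.75 ± 0.37 SE, unadjusted p = 0.0715), and Med6, Med8, Med18, Med20 and Med22 overlapped between groups. On the other side of Alox15 the nearest measured neighbour is Rnasek, 112 kb away, which encodes a small protein associated with the vacuolar proton pump. Rnasek stood at 99.2, 75.01, 119 and 79.4 CPM in wild types 1 to 4 and 119, 107 and 77.3 CPM in knockouts 1 to 3. The order of libraries was mixed between groups and the log2 fold change was 0.12 ± 0.28 (SE, unadjusted p = 0.69). Of the 50-base words in the last 500 bases of its coding transcripts, 91.3% also belong to Gm21988, a gene annotated over the same end. Gm21988 had 0 counts in all 7 libraries, so the split of tags between the 2 names cannot be checked.

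**Figure D2:**
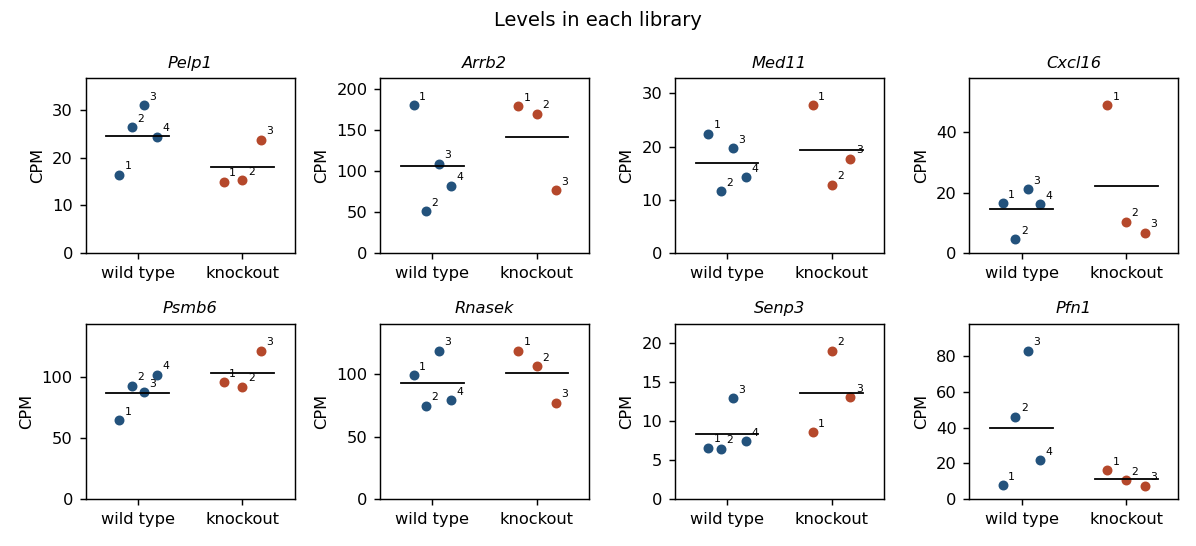
TMM-scaled CPM in each library (points, numbered by replicate; black line, group mean) for the neighbours Pelp1, Arrb2, Med11, Cxcl16, Psmb6, Rnasek, Senp3 and Pfn1. The groups overlap in every panel; Pfn1 is high in wild types 2 and 3, at 46.2 and 83.0 CPM.

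Pfn1 had the smallest p of all neighbours. It encodes profilin 1, which delivers actin monomers to growing filaments and is abundant in leukocytes. Pfn1 stood at 7.77, 46.2, 83.0 and 21.7 CPM in wild types 1 to 4 and 16.1, 10.4 and 7.40 CPM in knockouts 1 to 3. Wild types 2 and 3 stood apart at the top, wild type 1 was close to knockout 3, and the spread within wild type was 10.7-fold. The means were 39.7 ± 33.0 CPM (SD, n = 4) for the wild types against 11.3 ± 4.44 CPM (SD, n = 3) for the knockouts, with a log2 fold change of -1.81 ± 0.73 (SE, unadjusted p = 0.0344); the adjusted p was 0.99995. In edgeR the value was -1.16 (unadjusted p = 0.116) without wild type 3 and -2.17 (unadjusted p = 0.00246) without wild type 1. With the description prefix as a covariate in edgeR it was -1.30 (unadjusted p = 0.285). Of 823 words of 50 bases in the last 500 bases of its transcripts, 0 occur in transcripts of other genes. Actb and Cfl1, other genes of actin filament turnover, had log2 fold changes of -0.01 ± 0.44 and -0.15 ± 0.31 (SE). Mean levels over all libraries were 27.5 CPM for Pfn1, 13298 CPM for Actb and 518 CPM for Cfl1. The Pfn1 row is thus low for a protein abundant in leukocytes, and whether it holds all tags of the gene was not tested.

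Further neighbours carry signals or cargo in the cytoplasm. Kif1c encodes a kinesin motor, and its transcripts stood at 160.2, 80.7, 93.4 and 170.2 CPM in wild types 1 to 4 and 122, 108 and 74.8 CPM in knockouts 1 to 3. Wild types 1 and 4 were the highest, and the log2 fold change was -0.31 ± 0.35 (SE, unadjusted p = 0.392). Rabep1 encodes rabaptin-5, an effector of RAB5 on early endosomes. Rabep1 stood at 86.7, 75.3, 92.8 and 80.2 CPM in wild types 1 to 4 and 54.6, 82.4 and 76.5 CPM in knockouts 1 to 3, where only knockout 1 lay outside the wild-type range. Its log2 fold change was -0.23 ± 0.26 (SE, unadjusted p = 0.384). The last bases of Rabep1 and Nup88 overlap on opposite strands, and the strand setting of the counting was not given. Mink1, a kinase of the STE20 family, ranged over 6.89 to 26.9 CPM among wild types against 16.5 to 20.8 CPM among knockouts (0.36 ± 0.48, SE). Acap1, which switches off the GTPase ARF6, ranged over 11.5 to 32.3 CPM among wild types against 17.2 to 30.6 CPM among knockouts. Dvl2, which relays Wnt signals, stood at 35.9, 19.9, 28.2 and 51.6 CPM in wild types 1 to 4 and 32.5, 30.3 and 42.3 CPM in knockouts 1 to 3. All 3 knockouts lay inside the wild-type range of Dvl2 (0.05 ± 0.37, SE). Dlg4, a scaffold best known from synapses, was low and uneven: it stood at 3.88, 3.92, 2.58 and 12.7 CPM in wild types 1 to 4 and 4.08, 3.06 and 9.54 CPM in knockouts 1 to 3. The highest library was a wild type and the next a knockout (-0.04 ± 0.77, SE).

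Genes of protein turnover and of membrane traffic made up another part of the neighbourhood, and each overlapped between groups. Psmb6 encodes a catalytic subunit of the proteasome. It stood at 64.8, 93.0, 88.0 and 102 CPM in wild types 1 to 4 and 95.8, 92.2 and 122 CPM in knockouts 1 to 3, with a log2 fold change of 0.25 ± 0.26 (SE, unadjusted p = 0.37). Psmb9, the interferon-induced subunit that replaces it in immunoproteasomes, had -0.53 ± 0.35 (SE, unadjusted p = 0.165). Other catalytic subunits had values of either sign: Psmb5 -0.14 ± 0.33, Psmb7 -0.33 ± 0.36, Psmb8 -0.13 ± 0.29 and Psmb10 0.30 ± 0.31 (SE). Gabarap encodes a member of the ATG8 family, which is attached to autophagosome membranes. Gabarap stood at 328, 112, 243 and 178 CPM in wild types 1 to 4 and 306, 234 and 93.1 CPM in knockouts 1 to 3. Wild type 2 and knockout 3 were the lowest, wild type 1 and knockout 1 the highest, and the log2 fold change was -0.03 ± 0.47 (SE). Other ATG8 genes did not all share this order. Wild type 2 and knockout 3 were also the lowest for Map1lc3b (117 and 142 CPM), Gabarapl1 (2.19 and 3.31 CPM) and Map1lc3a (4.70 and 9.74 CPM). For Gabarapl2, wild type 2 was the lowest at 63.6 CPM, but knockout 3 was the highest at 100.9 CPM. Mpdu1, needed for the use of dolichol-linked mannose in glycosylation, ranged over 21.9 to 53.5 CPM among wild types against 19.3 to 59.2 CPM among knockouts. Ctdnep1, a phosphatase of the nuclear envelope, ranged over 27.0 to 59.3 CPM among wild types against 32.9 to 55.3 CPM among knockouts, and Neurl4, a protein of centrioles, over 17.5 to 45.4 CPM among wild types against 21.6 to 49.6 CPM among knockouts. Spag7 ranged over 22.1 to 45.5 CPM among wild types against 15.4 to 40.9 CPM among knockouts. The log2 fold changes of these 4 lay between -0.33 and 0.06.

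Derl2 and Rnf167 were each measured beside a gene that starts on the opposite strand. Head-to-head genes, which are transcribed away from each other from starts under 1000 bases apart, numbered 5 pairs among the neighbours. Both genes were tested in 3 of them: Slc25a11 with Rnf167, Nup88 with Rpain, and Derl2 with Mis12. Slc25a11 encodes the mitochondrial carrier of 2-oxoglutarate and malate, and Rnf167 a ubiquitin ligase of endosomes and lysosomes. NUP88 is a nuclear pore protein, and RPAIN carries replication protein A into the nucleus. Derlin-2 takes part in the removal of misfolded proteins from the endoplasmic reticulum, and MIS12 belongs to the kinetochore. By the GENCODE gene ends, Nup88 and Rpain start 240 bases apart, and the genes of the other 2 pairs overlap at their starts. The 3 windows are shown because each overlaps a RefSeq promoter window of the partner gene. They are read on the plus strand with the same words in capitals (RefSeq, GRCm38.p6, chr11:70646985-70647284, chr11:70969949-70970248 and chr11:71019361-71019660).
Rnf167: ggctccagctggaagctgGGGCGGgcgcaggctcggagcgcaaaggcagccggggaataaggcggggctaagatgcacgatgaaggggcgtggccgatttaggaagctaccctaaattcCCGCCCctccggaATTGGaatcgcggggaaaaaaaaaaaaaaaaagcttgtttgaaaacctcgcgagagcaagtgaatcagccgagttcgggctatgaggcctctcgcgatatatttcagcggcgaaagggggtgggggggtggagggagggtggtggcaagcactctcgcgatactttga
Rpain: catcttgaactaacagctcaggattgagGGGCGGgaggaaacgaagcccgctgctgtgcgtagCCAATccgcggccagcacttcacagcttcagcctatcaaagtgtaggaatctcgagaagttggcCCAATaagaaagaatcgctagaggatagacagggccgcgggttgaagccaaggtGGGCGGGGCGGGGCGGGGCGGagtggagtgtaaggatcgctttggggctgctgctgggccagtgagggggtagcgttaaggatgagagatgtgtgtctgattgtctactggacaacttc
Mis12: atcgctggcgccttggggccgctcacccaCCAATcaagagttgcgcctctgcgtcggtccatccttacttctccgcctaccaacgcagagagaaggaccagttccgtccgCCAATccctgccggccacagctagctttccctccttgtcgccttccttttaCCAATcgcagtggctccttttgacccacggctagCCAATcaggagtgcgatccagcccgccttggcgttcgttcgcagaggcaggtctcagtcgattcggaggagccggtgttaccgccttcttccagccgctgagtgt
The letters CCAAT, on either strand, stood in all 3 windows. Over the 50 windows of neighbours their share was 32.0%, against 37.4% of all RefSeq windows. GC boxes stood in those of Rnf167 and Rpain and not in that of Mis12.

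Genes of 1 pair did not keep a fixed ratio. Slc25a11 stood at 50.5, 37.7, 53.4 and 38.9 CPM in wild types 1 to 4 and 61.2, 47.8 and 43.4 CPM in knockouts 1 to 3. Rnf167 stood at 85.8, 26.5, 39.1 and 50.04 CPM in wild types 1 to 4 and 105, 58.5 and 31.0 CPM in knockouts 1 to 3. Both were highest in knockout 1 and lowest in wild type 2, and their ratio ran from 0.582 in knockout 1 to 1.43 in wild type 2. The log2 fold changes were 0.17 ± 0.28 for Slc25a11 and 0.37 ± 0.49 for Rnf167 (SE). Without knockout 1 that of Rnf167 was -0.17.

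Nup88 stood at 37.4, 62.3, 70.7 and 43.9 CPM in wild types 1 to 4 and 47.6, 64.3 and 25.9 CPM in knockouts 1 to 3. Rpain stood at 12.8, 10.3, 11.7 and 9.27 CPM in wild types 1 to 4 and 13.6, 8.88 and 7.60 CPM in knockouts 1 to 3. Knockout 3 held the lowest value of both, while the highest was in wild type 3 for Nup88 and in knockout 1 for Rpain. The ratio of Nup88 to Rpain ran from 2.91 to 7.24, and the log2 fold changes were -0.23 ± 0.38 and -0.14 ± 0.44 (SE). The nuclear pore partners Nup214 and Nup62 had -0.02 ± 0.29 and 0.00 ± 0.31, and the replication protein A genes Rpa1, Rpa2 and Rpa3 0.07 ± 0.36, 0.07 ± 0.35 and 0.02 ± 0.83.

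Derl2 stood at 26.9, 64.8, 39.5 and 21.7 CPM in wild types 1 to 4 and 30.7, 41.7 and 37.2 CPM in knockouts 1 to 3. Mis12 stood at 15.5, 33.2, 26.8 and 36.0 CPM in wild types 1 to 4 and 18.5, 14.1 and 28.0 CPM in knockouts 1 to 3. Derl2 peaked in wild type 2 and Mis12 in wild type 4, the library where Derl2 was lowest, so that the ratio ran from 0.603 to 2.96. Of the 50-base words in the last 500 bases of Mis12 transcripts, 3.96% also belong to Derl2, so some of their counts may be mixed. The log2 fold changes were -0.07 ± 0.40 for Derl2 and -0.46 ± 0.40 (SE, unadjusted p = 0.28) for Mis12. Of the ligase complex that works with derlins, Sel1l was higher in every knockout than in every wild type, at 87.8 to 98.3 CPM among wild types against 119 to 126 CPM among knockouts. Syvn1 was lower in every knockout, at 26.6 to 41.6 CPM among wild types against 16.5 to 25.1 CPM among knockouts. Neither was called in edgeR, with log2 fold changes of 0.44 ± 0.22 (SE, unadjusted p = 0.0815) and -0.76 ± 0.33 (SE, unadjusted p = 0.0437).

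**Figure D3:**
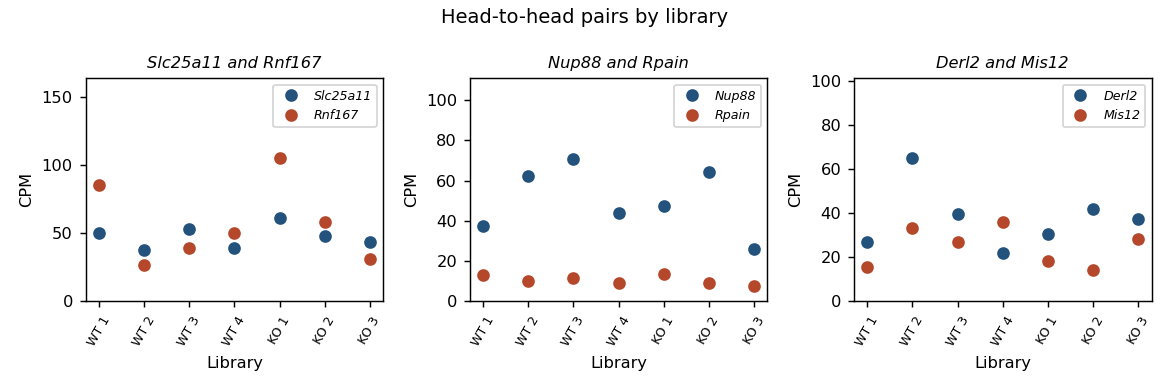
CPM of both genes of each head-to-head pair in the 7 libraries (WT, wild type; KO, knockout; 1 point per gene and library). Rnf167 runs from 26.5 to 105 CPM and Slc25a11 from 37.7 to 61.2 CPM, both highest in knockout 1.

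A further group of neighbours acts on RNA and chromatin. Eif5a encodes the translation factor that carries hypusine, a modified lysine made by DHPS and DOHH. Eif5a stood at 371, 632, 667 and 729.7 CPM in wild types 1 to 4 and 464, 457 and 645 CPM in knockouts 1 to 3. Wild type 1 was the lowest library and the 3 knockouts lay inside the wild-type range (-0.20 ± 0.33, SE). The 3′ end shares 8.0% of its words with other genes, mostly the pseudogene Eif5al3-ps. Dhps and Dohh had log2 fold changes of 0.07 ± 0.37 and 0.22 ± 0.52. Gps2, a subunit of the NCoR corepressor, stood at 158, 83.3, 114 and 158 CPM in wild types 1 to 4 and 117, 143 and 177 CPM in knockouts 1 to 3. Its log2 fold change was 0.19 ± 0.31, beside 0.22 ± 0.35 for Ncor1 and -0.25 ± 0.64 for Hdac3.

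Phf23, which encodes a PHD finger protein that binds methylated histone H3, stood at 97.7, 68.1, 81.0 and 86.3 CPM in wild types 1 to 4 and 115, 129.6 and 76.9 CPM in knockouts 1 to 3. Knockouts 1 and 2 exceeded all wild types and knockout 3 did not, with a log2 fold change of 0.36 ± 0.28 (SE, unadjusted p = 0.218). Fxr2, of the fragile X family of RNA-binding proteins, ranged over 57.0 to 93.2 CPM among wild types against 65.7 to 111 CPM among knockouts, Dhx33, an RNA helicase, over 7.17 to 38.7 CPM among wild types against 16.5 to 28.6 CPM among knockouts, and Elp5, of the Elongator complex, over 25.7 to 31.1 CPM among wild types against 21.4 to 34.1 CPM among knockouts. Camta2, a transcription activator that binds calmodulin, ranged over 9.71 to 46.0 CPM among wild types against 16.7 to 43.7 CPM among knockouts and the zinc finger gene Zfp3 over 1.85 to 7.99 CPM among wild types against 2.73 to 7.04 CPM among knockouts. The log2 fold changes of these 5 lay between -0.07 and 0.23.

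C1qbp and Acadvl encode mitochondrial proteins. C1qbp, the gene of a matrix protein first found as a binder of complement C1q, stood at 215, 426, 443 and 286 CPM in wild types 1 to 4 and 316, 487 and 369 CPM in knockouts 1 to 3. Knockout 2 was the highest and wild type 1 the lowest library, and the log2 fold change was 0.19 ± 0.34 (SE). Acadvl encodes the dehydrogenase that begins the oxidation of very long fatty acids. Acadvl stood at 38.8, 23.6, 47.7 and 31.8 CPM in wild types 1 to 4 and 21.4, 30.3 and 31.2 CPM in knockouts 1 to 3. Of the 3 knockouts, knockout 1 lay below the wild-type range (-0.36 ± 0.34 SE, unadjusted p = 0.312). Of the words in the last 500 bases of its transcripts, 56.2% also belong to Dvl2 on the opposite strand, where both genes end, so their counts may be mixed. Other genes of fatty acid oxidation had log2 fold changes of 0.36 ± 0.26 (Acadl), -0.11 ± 0.64 (Acadm), 0.12 ± 0.27 (Hadha), -0.21 ± 0.30 (Hadhb) and -1.33 ± 0.64 (Cpt2).

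Nlrp1a and Nlrp1b, farthest from Alox15 at 793 and 879 kb, encode sensors that start an inflammasome, the complex that activates caspase-1. They are known to differ between mouse strains, but their counts here were too low to compare. Nlrp1a had 26 counts in all and was not tested. It stood at 2.09, 0.313, 0.199 and 2.12 CPM in wild types 1 to 4 and 0, 1.84 and 0.389 CPM in knockouts 1 to 3. Nlrp1b passed the filter narrowly and stood at 3.88, 0, 2.98 and 0.530 CPM in wild types 1 to 4 and 3.69, 0.613 and 0.974 CPM in knockouts 1 to 3. High and low values occurred in both groups, with wild type 1 and knockout 1 the highest for Nlrp1b, and its log2 fold change of -0.03 ± 1.43 (SE) allows large differences either way. The 3′ end of Nlrp1a shares 1.35% of its words with the pseudogene Nlrp1c-ps, and that of Nlrp1b 0%. Downstream, Casp1 stood at 15.4 to 35.2 CPM among wild types against 18.4 to 33.0 CPM among knockouts, and Pycard, the adaptor, at 20.9 to 64.3 CPM among wild types against 39.5 to 52.1 CPM among knockouts.

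The 6 neighbours that were not tested were Nlrp1a, Zmynd15, Pld2, Inca1, Bcl6b and Chrne. Bcl6b, a paralog of the repressor gene Bcl6, and Chrne, a subunit of the acetylcholine receptor of muscle, had 0 of 31979006 counts. Over that unscaled total 3 counts would be 0.0938 CPM. Pld2, a phospholipase D, had 14 counts and Inca1, an inhibitor of cyclin-dependent kinases, 19. All 14 of Pld2 and 18 of the 19 of Inca1 came from knockout 1. Among the paralogs of Pld2, Pld3 and Pld4 were also highest in knockout 1, at 59.1 and 39.3 CPM, with log2 fold changes of 0.81 ± 0.42 (SE, unadjusted p = 0.0801) and 0.77 ± 0.62 (SE, unadjusted p = 0.242). Pld1 was highest in wild type 1, at 29.3 CPM, and stood at 7.58 CPM in knockout 1, with a log2 fold change of -0.44 ± 1.49 (SE, unadjusted p = 0.778).

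The libraries differed widely. Among the 35 tested neighbours with counts in every library, the highest of the 7 libraries, of either genotype, exceeded the lowest by 1.59-fold (Rnasek) to 11.2-fold (Pfn1), with a median of 2.60-fold. Wild type 2 was the lowest library for 12 of the 35. The spread and this count were not computed over all tested genes, so neither is shown to be particular to the neighbours. Wild type 2 and knockout 3, the libraries with the lowest neutrophil markers, were together the 2 lowest for 8 of 36 neighbours (22.2%, against 16.3% of all tested genes). These were Gabarap, Phf23, Rnasek, Arrb2, Cxcl16, Rnf167, Camta2 and Kif1c. They were the 2 highest for 0 of 36 neighbours, against 6.25% of all tested genes. With 1 library left out, the log2 fold changes of the 25 tested neighbours whose library values are given changed sign for 11. They moved by over 1.5 times, up or down, for the other 14. Values near 0 pass such a limit easily. The share over all tested genes was not computed, so this is not shown to be particular to the neighbours. Without wild type 2 and knockout 3 together, 7 of 36 neighbours (19.4%) no longer overlapped between groups, where 16.7% of all tested genes did not, and 0 were called.

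**Figure D4:**
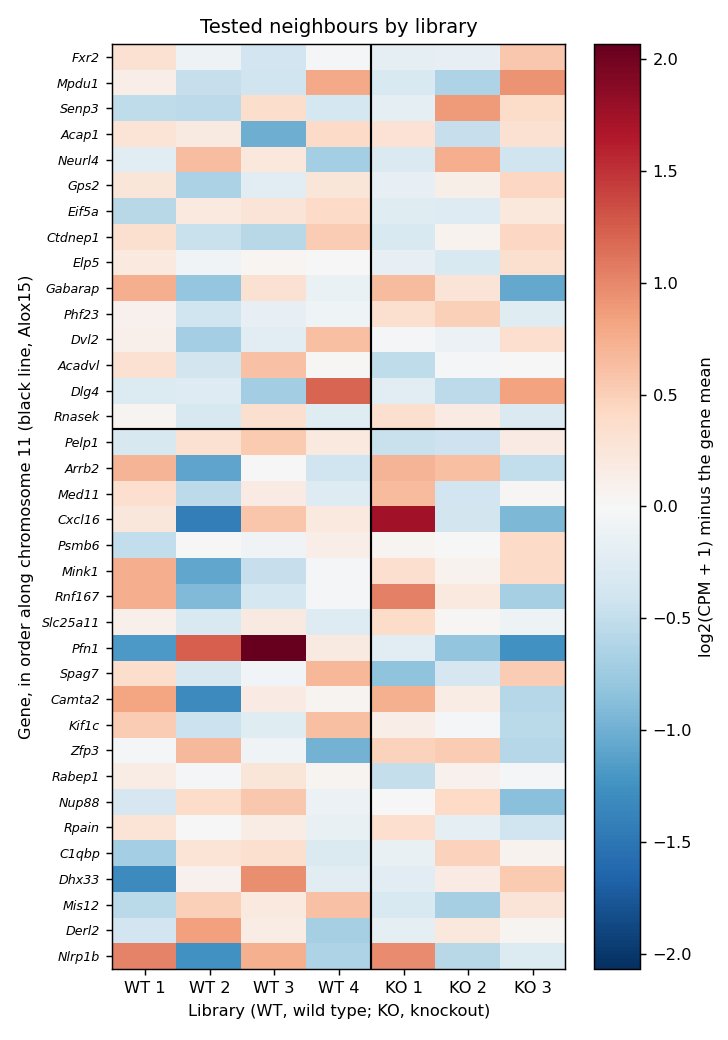
Log2(CPM + 1) of the 36 tested neighbours in each library after subtraction of the gene's mean over the 7 libraries (red, above the mean; blue, below), in chromosomal order with a black line at Alox15. Wild type 2 holds the lowest value for 12 of the 35 genes with counts in every library (share over all tested genes not computed). For 0 of the 36 do the 3 knockouts separate from the 4 wild types, against 3.13% of all tested genes that do.

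Other genes of the same interval were not called either. Of 78 further genes in the table between the outermost neighbours, 16 were tested, 0 were called and 0 had groups without overlap. Their log2 fold changes had a median of 0.096, with 9 above 0 and 7 below. The 3 with the smallest unadjusted p were 0610010K14Rik (-0.45 ± 0.31 SE, unadjusted p = 0.173), Eno3, the muscle enolase (0.50 ± 0.37 SE, unadjusted p = 0.206), and Zbtb4 (0.38 ± 0.33 SE, unadjusted p = 0.28). Cd68, a macrophage and granulocyte lysosomal gene, ranged over 17.4 to 120.4 CPM among wild types against 32.3 to 118 CPM among knockouts, and Polr2a, the large subunit of RNA polymerase II, over 245 to 331 CPM among wild types against 206 to 319.8 CPM among knockouts.

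Partners, paralogs and fellow subunits of the neighbours, from a list chosen by function, numbered 86 genes. Of these, 82 were tested, 45 with a log2 fold change above 0 and 37 below (median 0.029), and 0 were called. Groups did not overlap for 4 of 82 (4.88%, against 3.13% of all tested genes): Med17 and Sel1l with knockout higher, and Syvn1 and Dvl3 with knockout lower. The smallest unadjusted p were those of Syvn1 (0.0437), Cpt2 (0.0659) and Med17 (0.0715).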

How the data were processed

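RNA was measured by 3′ tag sequencing of polyA RNA (QuantSeq, per the labels' protocols) in 7 libraries of mouse granulocytes. The authors deposited 1 table of whole-number counts per Ensembl gene. The submitters' processing notes name mm10, DESeq2 and RSEM 1.2.3 without their roles, so the counts may be rounded estimates. The sources used here give no annotation release, strand setting or rule for shared reads, so counts of overlapping genes and of genes with pseudogenes are uncertain. Positions came from GENCODE M21, promoter sequences from RefSeq (GRCm38.p6), and 51596 of 51789 identifiers had a symbol.

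Knockout was compared with wild type in edgeR 4.0.16 (R 4.3.3): genes were filtered with filterByExpr, libraries scaled by TMM, and the robust quasi-likelihood test applied, with p-values adjusted by Benjamini-Hochberg over 12506 genes. Neighbours' rows were read from this fit; CPM are TMM-scaled. The SE is the log2 fold change divided by the root of F. Lists were described by counts beside those of all genes. The 42 neighbours, the partner and marker lists and the alternatives were chosen with earlier results of these data known. Every library's value was given for the 6 neighbours with the smallest p, the 10 with the highest mean, the 5 nearest on each side with at least 1 CPM, those without overlap, Nlrp1a, Nlrp1b and tested head-to-head pairs; further genes with values were the 3 smallest p of the interval and of the partners and those a sentence on a neighbour needed. Alternatives were DESeq2 1.42.0, limma-voom (limma 3.58.1), other scaling, other filters, leaving out libraries, a replicate block and the description prefix as a covariate.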

Additional observations from a re-analysis of the deposited data

Results flagged for a closer look

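In 3 of 40 neighbours with any count, 1 wild-type library lay far from the other 3, by more of the group's range than Dixon's 95% limit for 4 samples allows. Chance flags about 1 in 20 groups. Pld2, at 0 in all 4 wild types, could not be flagged. Dlg4 stood at 12.7 CPM in wild type 4 and at 2.58 to 3.92 CPM in the others. Senp3 stood at 12.9 CPM in wild type 3 and at 6.42 to 7.41 CPM in the others. Inca1 stood at 0.265 CPM in wild type 4, which is 1 count, and at 0 in the others, a pattern that passes the limit by construction.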

How the results depend on the processing

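No neighbour was called under any of the 16 alternatives, and the smallest adjusted p of a named neighbour was 0.893, in limma-voom. DESeq2 called 1 gene of the whole table, Impdh2-ps, a pseudogene elsewhere (named after its value was seen), and edgeR and limma-voom 0; genes at an unadjusted p under 0.05 numbered 213, 154 and 524. The median log2 fold change of the neighbours ran from -0.088 with the description prefix as a covariate to 0.115 in limma-voom. Neighbours without overlap numbered 0 under other scaling or filters, 0 to 4 with 1 library left out, and 7 without wild type 2 and knockout 3. The 4 were Pelp1, Spag7 and Elp5 (lower) and Phf23 (higher), without knockout 3 (11.1% of neighbours against 12.4% of all genes). Mink1 (higher) and Pfn1 (lower) did not overlap without wild type 1 (5.56% of neighbours against 8.14% of all genes), Acadvl (lower) without wild type 2 (2.78% against 5.97%), Senp3 (higher) without wild type 3 (2.78% against 4.98%), and Senp3 (higher) and Rpain (lower) without knockout 1 (5.56% against 8.92%).

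The replicate numbers did not show as pairs over all tested genes. Deviations from the group means correlated at 0.349, -0.225 and -0.184 for numbers 1 to 3, and knockout 2 correlated best with wild type 1. Wild type 2 and knockout 3, the libraries with the lowest neutrophil markers, correlated at 0.470. Libraries also differed in cell markers, so these correlations cannot decide whether same-numbered libraries were handled together. The replicate block, fitted without wild type 4, called 0 genes and gave a median of 0.110 over the neighbours.

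Of 398 log2 fold changes of 25 named neighbours under alternatives, 362 kept their sign and 36, of 13 genes, turned; the cause was not tested. Turned values were, in limma-voom, Gabarap 0.19 and Nlrp1b 0.72. Without wild type 2 and knockout 3 they were Gabarap 0.072, Gps2 -0.19, Dvl2 -0.34, Nup88 0.093 and Derl2 0.25. Under the replicate block they were Dlg4 0.52 and Nlrp1b 0.15. With the prefix as a covariate they were C1qbp -0.12, Gabarap 0.51, Gps2 -0.13, Dvl2 -0.059, Nlrp1b 1.01 and Rpain 0.30. With 1 library left out, C1qbp ran from -0.00045 to 0.34, Cxcl16 from -0.76 to 0.99, Derl2 from -0.28 to 0.31, Dlg4 from -0.74 to 0.72 and Dvl2 from -0.17 to 0.34. Likewise Gabarap ran from -0.39 to 0.28, Gps2 from -0.036 to 0.32, Med11 from -0.15 to 0.42, Nlrp1b from -1.16 to 0.59, Rnasek from -0.019 to 0.26 and Rnf167 from -0.17 to 0.72.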
